A study of Bubalus bubalis with 6 samples.

Results

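Genes for chromatin modifiers and remodelers were followed in buffalo (Bubalus bubalis) muscle stem cells (MuSCs) in proliferation, the GM samples (n = 3), and in differentiation, the DM samples (n = 3). The set was taken as 51 gene symbols, and 50 of them are listed among the 24616 genes of the deposited gene table. HDAC3 is not listed there by symbol. The MuSCs were primary cells that the authors had isolated from fetal longissimus muscle with collagenase and trypsin. GM samples were kept in growth medium with fetal bovine serum, and DM samples had been moved to differentiation medium with horse serum and had formed myotubes. RNA was sequenced from polyA libraries. The labels do not say whether each sample was a culture of its own, so the p-values measure only the spread between these samples, which may be technical.

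Chromatin modifiers add or remove methyl and acetyl groups on histones and DNA, and remodelers use ATP to move nucleosomes along DNA. Polycomb repressive complex 2 (PRC2) methylates lysine residues of histone H3 and keeps genes silent, while the SWI/SNF complexes open chromatin, and both have been studied at muscle genes of myoblasts. Many of these proteins work with DNA replication, since new chromatin has to be modified after each round of the cell cycle.

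Counts on genes ranged from 36657735 to 40305237 in GM samples and from 35615864 to 38177614 in DM samples. Levels are given as CPM, counts scaled to the TMM-normalised library size, which compares samples for a gene, and as RPKM, the authors' values per kilobase of gene length, which compares genes. Fold changes are DM over GM on the log2 scale, with their standard error (SE) and an adjusted p from edgeR's quasi-likelihood test (Benjamini-Hochberg over all 15576 genes with at least 10 counts). A change was called at an adjusted p under 0.05, and a second count asks also for an absolute log2 fold change above 1, which is 2-fold. Over all genes, DM replicate 3 stood apart from the other DM samples. The chi-square of gene counts divided by its degrees of freedom was 40.5 and 41.4 against them. It was 11.7 between DM replicates 1 and 2 and 6.22 to 10.6 between GM samples. For the tested genes of the set the gap was smaller. Their mean chi-square was 12.9 and 15.9 against DM replicates 1 and 2, 9.08 between those 2 and 6.84 to 11.6 between GM samples.

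Most of the chromatin genes were lower in DM samples. Of the 49 tested, 40 (81.6%) were called, against 63.0% of all tested genes. Of these, 30 (61.2%) fell and 10 (20.4%) rose, where 31.4% of all tested genes fell and 31.6% rose. Past 2-fold the call was made for 14 genes (28.6%, against 25.3% of all tested genes), of which 11 fell and 3 rose, where 10.3% of all tested genes fell and 15.0% rose this far. The median log2 fold change was -0.51, with a range from -3.29 to 1.64, beside a median of 0.03 over all tested genes. GM and DM samples did not overlap in 40 of the 49 genes (81.6%), and in 68.8% of all tested genes. The genes are well covered: their mean levels ran from 3.84 CPM for DNMT3B to 426 CPM for PRMT1 with a median of 54.7 CPM, and the median over all tested genes was 15.1 CPM. Among the 10848 genes with a mean level at least that of DNMT3B, 38.7% fell and 33.0% rose. The row for CBX3 held only 2 counts in the 6 samples and was not tested. Counting on mRNA transcripts gave 33 lower and 10 higher of the 53 transcripts tested, where 32.3% of all transcripts fell and 32.3% rose. Of the 54 transcripts listed for these genes, 47 held the same counts as their gene. This count is therefore largely the same data scaled again, not a second measurement. No log2 fold change differed from that of its gene by more than 0.071.

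**Figure D1:**
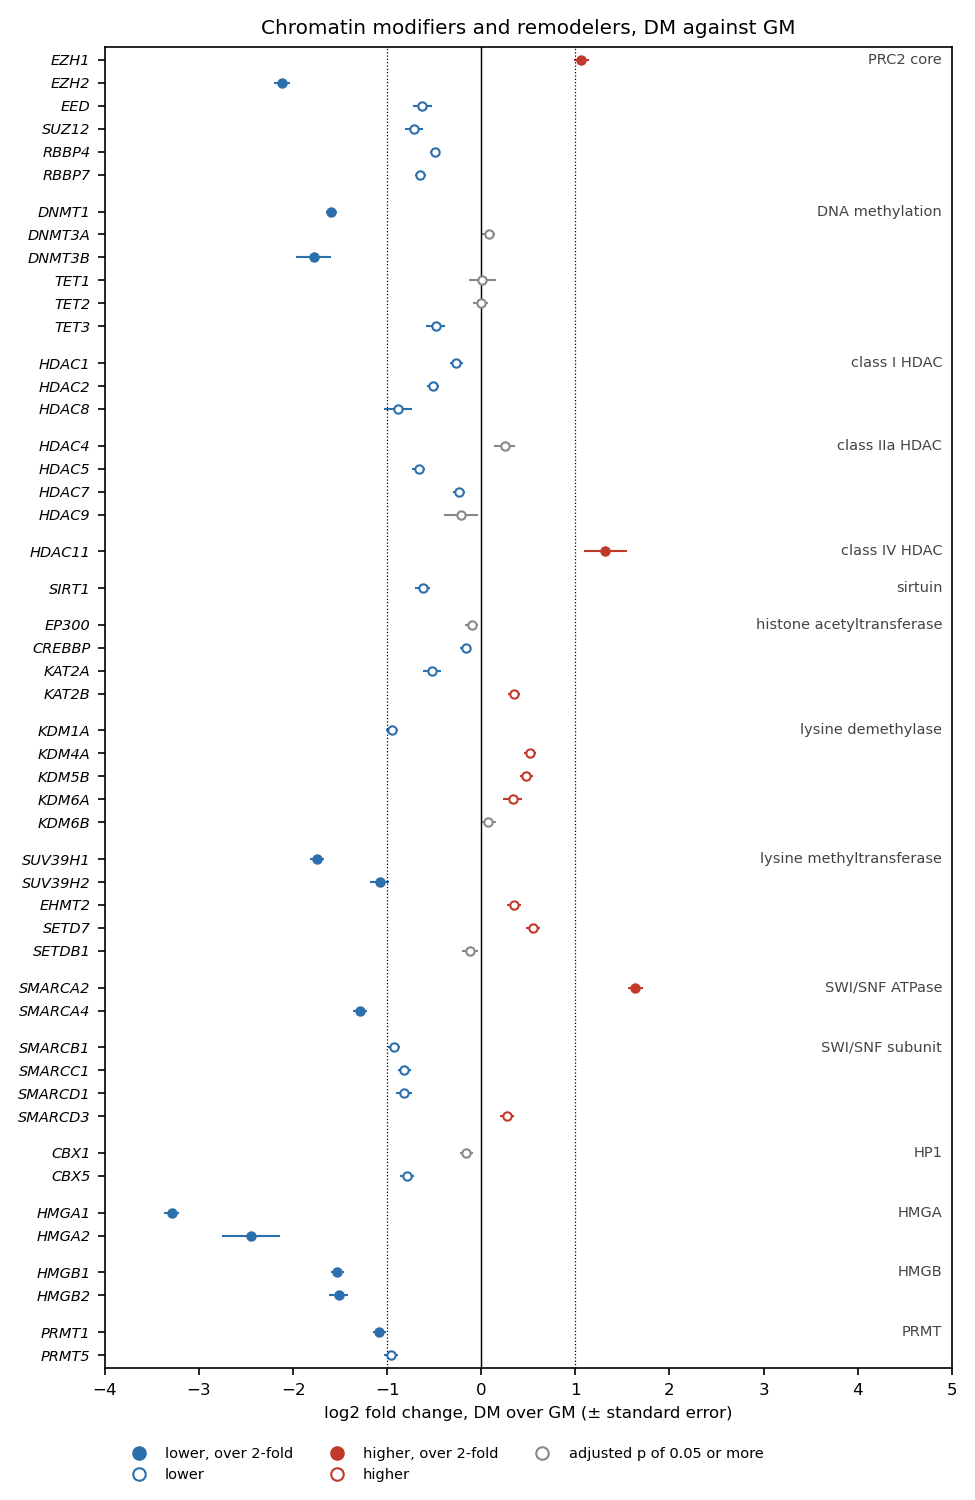
Log2 fold change (x axis, DM over GM) of the 49 tested chromatin genes, one row a gene, grouped by role, with bars of 1 standard error. Filled points passed an adjusted p of 0.05 and 2-fold, coloured open points passed the adjusted p alone and grey points passed neither; most points lie left of 0, and EZH1, HDAC11 and SMARCA2 are the 3 filled points on the right.

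Markers of other processes moved with the same contrast. All 20 genes of a proliferation list fell, 19 of them past 2-fold, and their summed level went from 1429 to 1472 RPKM in GM samples to between 326 and 383 RPKM in DM samples. MKI67 fell from 677 to 133 CPM and TOP2A from 361 to 121 CPM. Of 13 tested myogenic genes 10 rose, MYOG among them (52.9 to 167 CPM), and PAX7 and MYF5 fell, with a summed level of 1388 to 1722 RPKM in GM samples and 4899 to 6931 RPKM in DM samples. All 9 fibroblast genes rose, among them COL1A1, with a summed level of 5815 to 5891 RPKM in GM samples and 17022 to 21027 RPKM in DM samples. Adipocyte, endothelial and leukocyte lists summed to at most 2.45, 3.73 and 6.13 RPKM in any sample, and a Schwann and neural list to between 109.7 and 126 RPKM in GM samples and 59.7 and 83.5 RPKM in DM samples, nearly all of it NCAM1, which muscle cells also express. PTPRC, of the leukocyte list, held 2 counts or fewer in every sample. Past 2-fold, 1 of 5 tested adipocyte genes rose and 1 fell. Of 6 endothelial genes 1 rose and 2 fell this far, and of 5 tested leukocyte genes 1 rose and 1 fell. Among all tested genes 15.0% rose and 10.3% fell past 2-fold. The part of cycling cells and of cell composition in the results was not tested, and in these bulk samples fewer cells of a type and less RNA per cell cannot be told apart.

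In PRC2 the catalytic subunits moved in opposite directions. EZH2 (chromosome 4, 112815327 to 112848415), the methyltransferase of dividing cells, stood at 133, 138 and 132 CPM in GM samples and at 27.1, 32.1 and 33.4 CPM in DM samples. Its level fell by 2.12 on the log2 scale, 4.35-fold (SE 0.0835, adjusted p = 1.26e-08 from edgeR), with no overlap between the groups. EZH1 (chromosome 19, 43395930 to 43428213), the paralog found also in cells that have left the cycle, stood at 21.7, 18.7 and 21.2 CPM in GM samples and 44.6, 42.2 and 41.8 CPM in DM samples. It rose 2.09-fold (log2 fold change 1.06, SE 0.0795, adjusted p = 9.15e-07 from edgeR). The 2-fold line is close for EZH1: with library size alone its log2 fold change was 0.96, and without GM replicate 2 it was 0.999. Per length, EZH2 made up 92.2, 93.4 and 92.3% of the summed RPKM of the pair in GM samples and 53.9, 59.5 and 60.6% in DM samples. The order depends on the unit: in RPKM EZH2 was the higher of the pair in every sample, and in CPM EZH1 was the higher in every DM sample. The log2 ratio of EZH2 to EZH1 counts moved by -3.19, the widest shift of the 16 pairs of related genes compared. The other core subunits also fell, by less than 2-fold. EED, which binds the methylated histone tail, fell by 0.62 (adjusted p = 0.00025 from edgeR), and SUZ12, the scaffold of the complex, fell by 0.72 (adjusted p = 6.48e-05). The histone-binding subunits RBBP4 and RBBP7 fell by 0.49 and 0.65 (adjusted p = 1.67e-05 and 4.72e-06), and the RBBP4 share of their RPKM was 47.5, 48.0 and 47.8% in GM samples and 51.8, 49.96 and 49.7% in DM samples. Summed over the 6 core genes, the level went from 346 ± 5.03 RPKM to 199 ± 10.2 RPKM (SD, n = 3 each). Most of this sum was RBBP4 (119 RPKM in GM samples and 79.0 RPKM in DM samples) and RBBP7 (130 and 77.6 RPKM).

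Of the 3 DNA methyltransferases, DNMT1 and DNMT3B fell and DNMT3A was not called. DNMT1 (chromosome 7, 15913446 to 15956917), the enzyme that copies methylation to the new strand, stood at 295, 302 and 295 CPM in GM samples and at 99.4, 94.5 and 101 CPM in DM samples. It fell 3.02-fold (log2 fold change -1.59, SE 0.0586, adjusted p = 8.69e-09 from edgeR). DNMT3B (chromosome 13), which sets new methylation, had the lowest mean CPM over the 6 samples among the 49 tested genes, with 5.52, 5.74 and 6.57 CPM in GM samples and 2.04, 1.64 and 1.51 CPM in DM samples. Its level fell 3.43-fold (log2 fold change -1.78, SE 0.187, adjusted p = 1.16e-05 from edgeR), from 229 to 249 counts in GM samples and 56 to 69 counts in DM samples. Neither gene's groups overlapped. DNMT3A, the other enzyme for new methylation, had 51.2 ± 2.99 CPM in GM samples and 54.0 ± 2.90 CPM in DM samples (SD, n = 3 each), with overlapping groups and a log2 fold change of 0.08 (SE 0.0734, adjusted p = 0.379 from edgeR). Within the DNMT1 and DNMT3A pair, DNMT1 held 75.3, 76.4 and 77.4% of the RPKM in GM samples and 49.4, 50.8 and 50.8% in DM samples. In DM samples these genes were therefore near parity per length, at 18.4 RPKM for DNMT1 and 18.1 RPKM for DNMT3A. This too depends on the unit: in CPM DNMT1 stayed the higher in every DM sample, with means of 98.4 and 54.0 CPM. Among the TET enzymes, which oxidise methylated cytosine, TET3 fell by 0.48 (adjusted p = 0.00179 from edgeR). TET1 and TET2 were not called, with log2 fold changes of 0.01 (SE 0.144) and -0.0049 (SE 0.0798). The TET3 share of TET3 and TET2 was 41.0, 39.0 and 36.2% in GM samples and 31.9, 31.4 and 30.2% in DM samples.

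HMG proteins bend DNA and change how nucleosomes pack, and the HMGA genes had the lowest log2 fold changes of the set. HMGA1 (chromosome 23, 8258750 to 8268920) stood at 421, 485 and 443 CPM in GM samples and at 42.8, 48.4 and 46.6 CPM in DM samples. It fell 9.78-fold (log2 fold change -3.29, SE 0.0792, adjusted p = 8.29e-10 from edgeR), the largest change of the 49 genes. HMGA2 (chromosome 5, 48053846 to 48199963) stood at 20.2, 22.6 and 20.6 CPM in GM samples and 2.25, 2.76 and 6.54 CPM in DM samples. Its groups did not overlap, but DM replicate 3 was well above the other DM samples. HMGA2 fell by 2.45 on the log2 scale (SE 0.305, adjusted p = 4.3e-05 from edgeR), by 3.06 without DM replicate 3 and by 2.17 without DM replicate 1. The same sample shows in the share of HMGA1 in the pair, which was 88.6, 88.9 and 89.0% in GM samples and 87.7, 86.8 and 72.7% in DM samples. Together the HMGA genes went from 283 ± 19.4 RPKM to 29.4 ± 4.29 RPKM (SD, n = 3 each).

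HMGB genes fell together. HMGB2 (chromosome 8, 5583684 to 5586018), an HMG-box protein of dividing cells, stood at 220, 238 and 224 CPM in GM samples and at 79.1, 91.5 and 67.7 CPM in DM samples. It fell 2.86-fold (log2 fold change -1.52, SE 0.0987, adjusted p = 3.35e-07 from edgeR). HMGB1 had 70.8, 74.7 and 68.8 CPM in GM samples and 23.7, 24.9 and 25.4 CPM in DM samples, a 2.89-fold fall (log2 fold change -1.53, SE 0.0694, adjusted p = 2.86e-08 from edgeR). Neither gene's groups overlapped, and the HMGB2 to HMGB1 log2 ratio moved by only 0.01, with overlapping groups (exact permutation p = 1). The HMGB1 row is 725 bases long (chromosome 16, 11057883 to 11058607) and has no intron. Nor has the CBX3 row of 546 bases on chromosome 1. Each row may therefore be an intronless copy and not the parent gene, and reads may be divided with other copies. The levels of HMGB1 and CBX3, and the fall given for HMGB1, are uncertain.

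**Figure D2:**
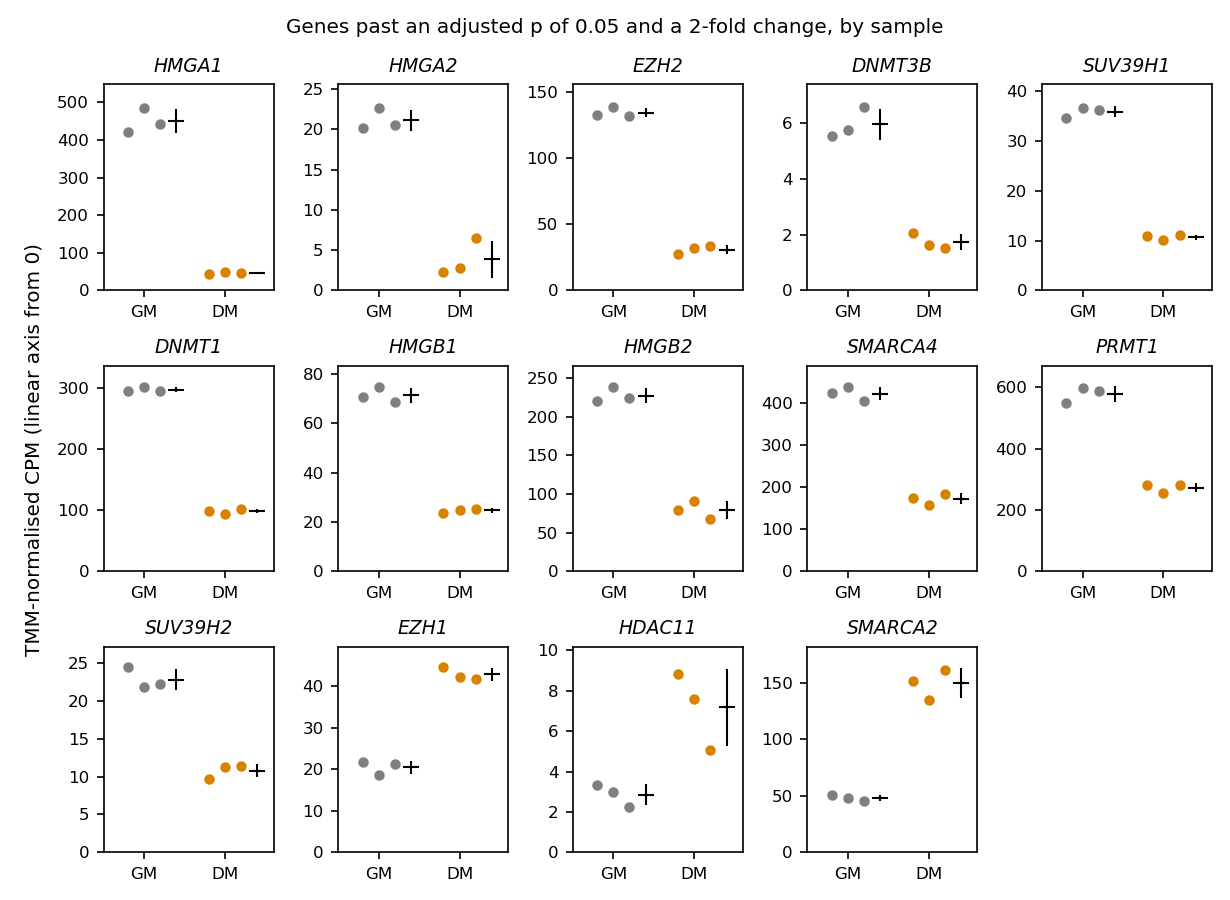
CPM (y axis, linear from 0, TMM-normalised) of the 14 genes past an adjusted p of 0.05 and 2-fold, one panel a gene, with a point for each GM (grey) and DM (orange) sample and a cross for the mean with its SD. No panel has overlapping groups; the DM replicate 3 point of HMGA2, at 6.54 CPM, lies above the other DM points at 2.25 and 2.76 CPM.

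The SWI/SNF ATPases also moved in opposite directions. SMARCA4 (BRG1; chromosome 7, 16648313 to 16738471) stood at 422, 438 and 405 CPM in GM samples and at 175, 158 and 184 CPM in DM samples. It fell 2.45-fold (log2 fold change -1.29, SE 0.0705, adjusted p = 9.65e-08 from edgeR). SMARCA2 (BRM; chromosome 8, 42652775 to 42830159), the alternative ATPase of the same complexes, stood at 50.6, 48.0 and 45.6 CPM in GM samples and 152, 135 and 162 CPM in DM samples. SMARCA2 rose 3.11-fold (log2 fold change 1.64, SE 0.0796, adjusted p = 4.62e-08 from edgeR), the largest rise of the set. Its interval holds a U6 gene on the opposite strand, while those of SMARCA4, DNMT1 and HMGA2 hold small RNA genes on the same strand. SMARCA4 made up 89.6, 90.4 and 90.2% of the RPKM of the pair in GM samples and 54.2, 54.7 and 54.1% in DM samples, with samples of a group within a narrow band. The log2 ratio of their counts moved by -2.93, a 7.61-fold change. Of the other subunits, SMARCB1 and SMARCC1, which belong to the core, fell by 0.93 and 0.82 (adjusted p = 4.24e-07 and 1.79e-06 from edgeR). SMARCD1 fell by 0.82 (adjusted p = 1.05e-05) and its paralog SMARCD3 (BAF60C), known for its role with MYOD1 in muscle, rose by 0.27 (adjusted p = 0.00756). SMARCD1 held 38.7, 39.5 and 36.6% of the RPKM of this pair in GM samples and 24.0, 21.8 and 22.0% in DM samples. The rise of SMARCD3 was no longer called with library size alone (adjusted p = 0.0694).

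**Figure D3:**
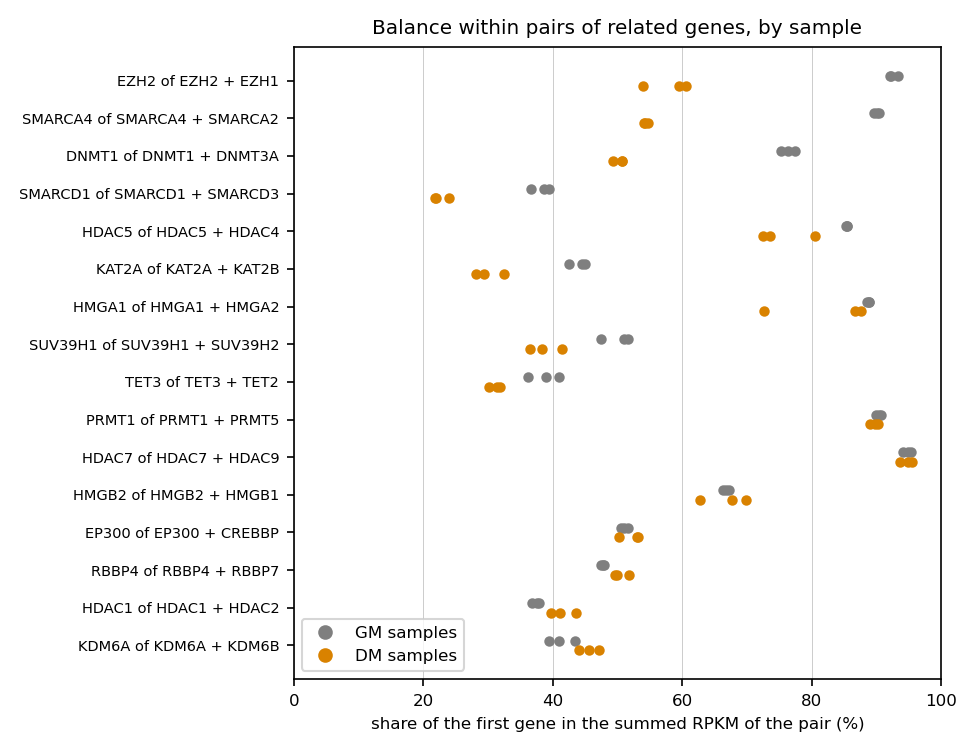
Share of the first-named gene in the summed RPKM of 16 pairs of related genes (x axis, percent), one point a sample, GM in grey and DM in orange. The EZH2, SMARCA4 and DNMT1 pairs have the widest gaps between groups, with DM shares between 49.4 and 60.6%.

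Among the enzymes that methylate histone H3 at lysine 9, the SUV39H pair fell. SUV39H1 (chromosome X) stood at 34.6, 36.6 and 36.2 CPM in GM samples and at 10.8, 10.1 and 11.1 CPM in DM samples, a 3.35-fold fall (log2 fold change -1.75, SE 0.0787, adjusted p = 2.77e-08 from edgeR). SUV39H2 (chromosome 13) had 24.4, 21.8 and 22.2 CPM in GM samples and 9.74, 11.3 and 11.4 CPM in DM samples, a 2.11-fold fall (log2 fold change -1.08, SE 0.0986, adjusted p = 4.04e-06 from edgeR). The groups did not overlap for either gene. The SUV39H1 share of the pair was 47.5, 51.7 and 51.0% in GM samples and 41.4, 36.4 and 38.4% in DM samples. EHMT2 (G9a), which also methylates this residue, moved the other way and rose by 0.34 (adjusted p = 0.0022 from edgeR), and SETDB1 was not called (log2 fold change -0.12, SE 0.0847, adjusted p = 0.237). SETD7, which methylates lysine 4 of histone H3, rose by 0.55 (adjusted p = 0.000132). The summed level of the 5 methyltransferases, SETD7 included, was 97.1 ± 2.44 RPKM in GM samples and 96.3 ± 2.93 RPKM in DM samples (SD, n = 3 each). This sum joins rises and falls. SETD7 went from 32.8 to 44.9 RPKM and EHMT2 from 28.9 to 34.2 RPKM. SUV39H1 went from 13.3 to 3.70 RPKM, SUV39H2 from 13.3 to 5.87 RPKM and SETDB1 from 8.84 to 7.59 RPKM.

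The HP1 proteins read this mark. CBX5 (HP1 alpha) fell by 0.79 (adjusted p = 4.78e-06 from edgeR), from 77.7 ± 5.23 to 44.9 ± 2.22 CPM (SD, n = 3 each), and CBX1 (HP1 beta) was not called (log2 fold change -0.16, SE 0.0716, adjusted p = 0.0757). Its fall was called with library size alone, without DM replicate 2 and for its transcript in the mRNA table (adjusted p = 0.0488 from edgeR), which holds the same counts.

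Of the arginine methyltransferases, PRMT1 had the highest level per length of the set. PRMT1 (chromosome 18, 56534833 to 56545053), the main enzyme for asymmetric arginine methylation, stood at 549, 597 and 589 CPM in GM samples and at 283, 257 and 280 CPM in DM samples. It fell 2.12-fold (log2 fold change -1.08, SE 0.0652, adjusted p = 1.91e-07 from edgeR), from 457 to 202 RPKM, with no overlap. PRMT5, which makes symmetric dimethylarginine, fell by 0.96 (adjusted p = 1.25e-06 from edgeR), just inside the 2-fold line, and by 1.03 without DM replicate 3. The PRMT1 to PRMT5 ratio overlapped between the groups (log2 change -0.12, exact permutation p = 0.2).

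Deacetylases remove acetyl groups from histones and other proteins. The 3 class I enzymes tested all fell by less than 2-fold: HDAC1 by 0.27 (adjusted p = 0.00734 from edgeR), HDAC2 by 0.51 (adjusted p = 5.06e-05) and HDAC8 by 0.88 (adjusted p = 0.000457). HDAC3, also of class I, is not listed by symbol. HDAC1 held 36.8, 37.5 and 37.9% of the HDAC1 and HDAC2 RPKM in GM samples and 43.6, 39.8 and 41.1% in DM samples. Class IIa enzymes, which bind the MEF2 factors of muscle, were mixed. HDAC5 fell by 0.66 (adjusted p = 1.39e-05 from edgeR) and HDAC7 by 0.24 (adjusted p = 0.00954), while HDAC9 had a log2 fold change of -0.22 (SE 0.177, adjusted p = 0.309). HDAC4 had 22.2, 23.7 and 22.9 CPM in GM samples and 30.9, 28.7 and 22.3 CPM in DM samples, with DM replicate 3 at the level of the GM samples. Its log2 fold change of 0.25 was not called (SE 0.112, adjusted p = 0.0715 from edgeR), and without DM replicate 3 it was 0.39 (adjusted p = 0.000295). The HDAC5 share of HDAC5 and HDAC4 was 85.4, 85.5 and 85.4% in GM samples and 72.5, 73.7 and 80.6% in DM samples. HDAC11 (chromosome 22), the only class IV enzyme, was low in GM samples at 3.33, 3.00 and 2.27 CPM and stood at 8.85, 7.60 and 5.08 CPM in DM samples. It rose 2.50-fold (log2 fold change 1.32, SE 0.23, adjusted p = 0.0005 from edgeR) with no overlap, and was the only deacetylase of the set called higher, other than HDAC4 under the alternatives without DM replicate 3, with upper quartile factors and with the RPKM rule. SIRT1, which uses NAD+, fell by 0.62 (adjusted p = 6.04e-05). The intervals of HDAC1 and HDAC7 overlap MARCKSL1 and SLC48A1 on the opposite strand, that of HDAC8 a U6 gene and that of HDAC4 a gene listed by identifier only. Since the strand used in counting is not given in the sources used here, reads of these neighbours cannot be told apart.

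Histone acetyltransferases moved by less than 2-fold. EP300 was not called (log2 fold change -0.10, adjusted p = 0.233 from edgeR) and its paralog CREBBP fell by 0.16 (adjusted p = 0.0353), a call that was lost in 8 of the 14 alternative settings. The GCN5 and PCAF pair diverged: KAT2A (GCN5) fell by 0.52 (adjusted p = 0.000618) and KAT2B (PCAF), which acetylates MYOD1, rose by 0.35 (adjusted p = 0.000803). KAT2A held 42.6, 44.5 and 45.0% of their RPKM in GM samples and 32.5, 28.1 and 29.4% in DM samples.

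Lysine demethylases held 3 of the 7 rises under 2-fold. KDM1A (LSD1), which acts on lysine 4 of histone H3, had 189, 189 and 203 CPM in GM samples and 100, 102 and 98.8 CPM in DM samples, and fell by 0.95 (SE 0.0593, adjusted p = 2.5e-07 from edgeR). KDM4A, KDM5B and KDM6A rose by 0.52, 0.48 and 0.33 (adjusted p = 2.82e-05, 0.000137 and 0.0125 from edgeR). KDM6A and KDM6B remove the mark that PRC2 sets, and KDM6B was not called (log2 fold change 0.08, adjusted p = 0.43). The KDM6A share of that pair was 40.9, 39.4 and 43.4% in GM samples and 45.7, 47.1 and 44.03% in DM samples. The call of KDM6A was lost with library size alone (adjusted p = 0.0568) and without GM replicate 2 (adjusted p = 0.0571).

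In 12 of the 16 pairs of related genes the GM and DM ratios did not overlap. The share over all possible pairs of tested genes was not computed, and as single genes 68.8% of all tested genes did not overlap. Each of the 12 pairs had p = 0.1 in the exact two-sided permutation test, the lower limit of this design, and an adjusted p of 0.133 (Benjamini-Hochberg, 16 pairs), so no pair could come under 0.05. The ratios of EP300 to CREBBP, HDAC7 to HDAC9, HMGB2 to HMGB1 and PRMT1 to PRMT5 overlapped between the groups, with exact p between 0.2 and 1.

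A further list of 212 chromatin genes outside the set was read in the same fit, and 191 of them were tested. Of these, 112 (58.6%) fell and 32 (16.8%) rose, where 31.4% of all tested genes fell and 31.6% rose. Past 2-fold 31 fell and 3 rose, where 10.3% of all tested genes fell and 15.0% rose this far. In either direction the call past 2-fold was made for 17.8% of the list, against 25.3% of all tested genes. The largest falls were those of UHRF1, the partner of DNMT1, from 370 to 55.6 CPM (log2 fold change -2.73), of HJURP, the centromere chaperone (-2.15), of the remodeler CHD7 (-2.06), of CHAF1A, a subunit of chromatin assembly factor 1 (-2.04), and of WHSC1 (-1.97). Among the rises past 2-fold were SMYD1, the striated muscle methyltransferase, from 2.67 to 28.0 CPM (log2 fold change 3.40), and the mitochondrial deacetylase SIRT3 (1.09). All 13 histone chaperones and all 7 tested histone variants fell. Of the other SWI/SNF subunits 12 of 17 fell and the other 5 were not called by edgeR.

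**Figure D4:**
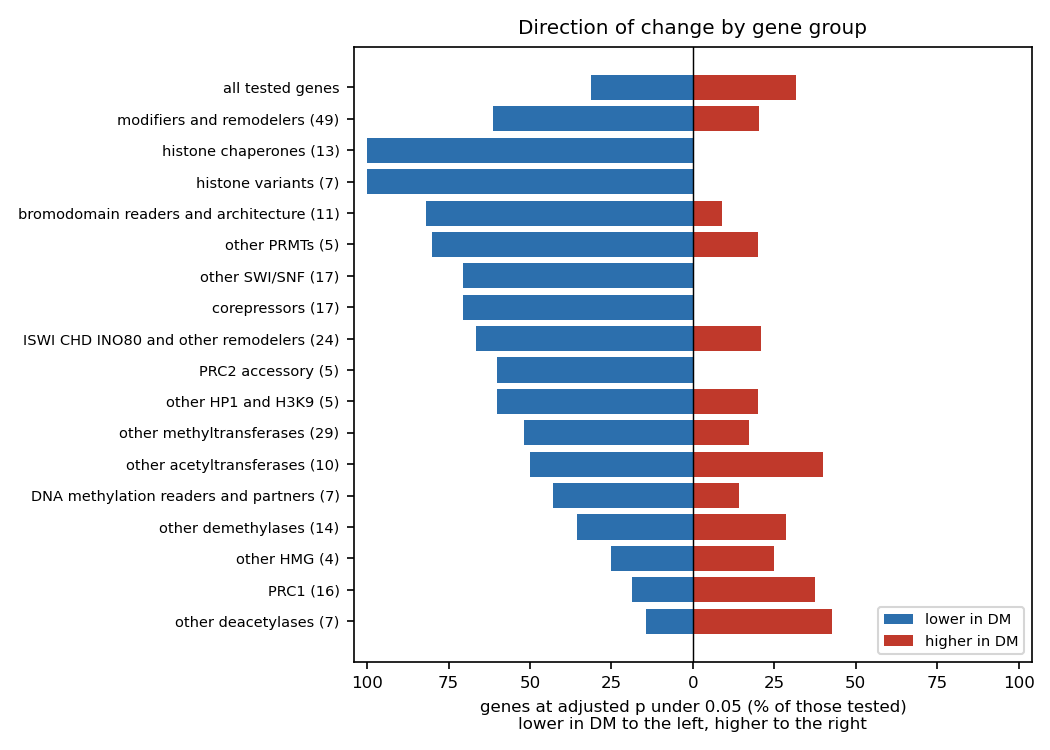
Percent of tested genes that fell (blue, to the left of 0) and rose (red, to the right) at an adjusted p under 0.05, for all tested genes, the 49 chromatin modifiers and remodelers and the groups of the further list, with the number tested in brackets. The bar of the set is longer to the left (61.2%) than to the right (20.4%), and histone chaperones and variants lie wholly to the left.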

How the data were processed

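RNA-seq of 3 GM and 3 DM samples was analysed from the gene and mRNA tables. The deposited count columns hold raw counts per gene or transcript; the authors' methods name HISAT2 and the buffalo genome. The submitters' processing notes name Bowtie 0.12.2, mm8 and mm9, and the tables list cattle Ensembl identifiers and no build, so coordinates are as the tables give them. The authors derived the RPKM values from these counts and the deposited Length column (bases). The deposited lists of the authors' own comparisons hold fold changes and p-values and, like the ncRNA table, were not used. Genes with at least 10 counts in total were tested with edgeR (glmQLFit, TMM, group only). Pair ratios used log2(count + 0.5) within a library. Genes past 2-fold and pairs without overlap are given by sample, other genes by fold change, and of the further list the 5 largest rises and falls past 2-fold, of which only 3 rises exist and 1 is not reported here. The members and lists were chosen with earlier results of these data known. Alternatives were DESeq2, other size factors (library size alone, DESeq2's, upper quartile), other filters (none beyond 1 count, filterByExpr, the study's RPKM rule, 1 or higher in over 50% of samples), a replicate block, a pseudocount of 10 and each sample left out. The fit was also run on simulated data with few changed genes and the same dispersion for every gene. That is a simpler case than these data, so the run does not test the calls made here.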

Additional observations from a re-analysis of the deposited data

How the results depend on the processing

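Over the alternatives, the chromatin genes at an adjusted p under 0.05 numbered 28 to 33 lower and 8 to 11 higher, those past 2-fold 10 to 14 lower and 2 to 3 higher, the transcripts 31 to 35 lower and 7 to 11 higher, and the further list 105 to 128 lower and 26 to 34 higher. Shares over all tested genes were computed in the main setting only (31.4% lower and 31.6% higher). The counts under alternatives therefore cannot be set against a share of their own setting. With library size alone the median log2 fold change of the chromatin genes was -0.61 and that of all tested genes moved from 0.03 to -0.07; the chromatin genes then numbered 33 lower and 8 higher, KDM1A (-1.05), SMARCB1 (-1.03) and PRMT5 (-1.06) passed 2-fold, EP300, SETDB1 and CBX1 were called lower, and DNMT3A (-0.021), KDM6B (-0.022) and TET1 (-0.086) changed sign. TET2 changed sign with upper quartile factors (0.062), filterByExpr (0.0063) and the RPKM rule (0.052), and the HMGB2 to HMGB1 ratio with a pseudocount of 10 (-0.0018). With a sample left out, TET1 ranged from -0.058 to 0.14, TET2 from -0.058 to 0.056, the HDAC7 to HDAC9 ratio from -0.13 to 0.14 and the HMGB2 to HMGB1 ratio from -0.095 to 0.14. The causes were not tested. Of 685 log2 fold changes of single genes under alternatives, 654 kept their direction and side of the threshold. Same-numbered GM and DM samples did not deviate together (r between -0.0467 and -0.0081), and with the replicate number as a block 29 genes fell and 10 rose, 11 and 3 past 2-fold. In that block fit the transcripts numbered 32 lower and 10 higher and the further list 110 and 32. DNMT3B, at 56 to 69 counts in DM samples, was not tested under the RPKM rule.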

Other observations

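Of the 5 PRC2 accessory subunits tested, 3 fell and 2 were not called by edgeR: PHF19 fell by 1.88 on the log2 scale, JARID2 by 0.91 and MTF2 by 0.47, and PHF1 and AEBP2 were not called. These genes and those that follow were named after their values were seen. Of the 7 deacetylases tested outside the set, 3 rose, 1 fell and 3 were not called: SIRT2, SIRT3 and SIRT5 rose by 0.76, 1.09 and 0.98, and SIRT6 fell by 0.36. Of the 10 other acetyltransferases and their partners tested, 4 rose, none of them past 2-fold, 5 fell, 2 of them past 2-fold, and 1 was not called. The rises were those of NCOA1, NCOA2, NCOA3 and KAT6B, by 0.57, 0.86, 0.59 and 0.46, and the falls past 2-fold those of HAT1, which acetylates new histone H4, and BRPF1, by 1.14 and 1.07. KAT5, KAT7 and KAT8 fell by 0.39, 0.60 and 0.37. Among all tested genes 31.6% rose and 31.4% fell.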
